A study of Arabidopsis thaliana with 3 samples.

Results

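The genes AHL19 to AHL28 of Arabidopsis thaliana encode 10 close relatives of SOB3, the AT-hook protein whose binding to chromatin was mapped by ChIP-seq. They were taken by locus from the Clade A of the AHL (AT-HOOK MOTIF NUCLEAR LOCALIZED) family, as 10 of 27443 protein-coding genes on chromosomes 1 to 5. The SOB3 gene itself was left out of every count, because the transgene carries its promoter. Whole Col-0 plants aged 14 days were harvested at ZT4, after growth at 22 °C with a photoperiod of 16 h and nights of 8 h. All plants carried ProSOB3::SOB3-GFP in the sob3-4 background, so SOB3 was present as the GFP fusion under its own promoter. Anti-GFP antibody was used for both of the 2 ChIP libraries, and 1 further library was input DNA. The peak lists of the ChIP libraries were analysed, and the input was not analysed here. No precipitation from plants without the fusion was analysed here, and separate plantings are not stated for the replicates, so any difference between them may be only technical spread.

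AHL proteins join an AT-hook, which touches the minor groove of A/T-rich DNA, to a PPC domain, through which they bind each other and other nuclear proteins. Clade A members act redundantly: SOB3 and ESCAROLA (ESC, AHL27) both hold back elongation of the seedling hypocotyl, and a mutant SOB3 protein that cannot bind DNA interferes with its relatives. The question put to the peaks was whether SOB3-GFP lay at the genes of these relatives. In whole plants, occupancy in few cells and weak occupancy in many cells cannot be told apart.

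Peaks numbered 9980 in replicate 1, at a median fold enrichment of 2.58 (range 1.51 to 10.5), and 4788 in replicate 2, at a median of 2.47 (range 1.60 to 6.60). Fold is the authors' own ratio of summit signal to control. Summit reads were recovered from the deposited columns and ran from 42 to 259 in replicate 1 and from 38 to 163 in replicate 2. A gene was counted when a peak summit fell inside it or no more than 1000 bp beyond either end. It had a shared region when such peaks of both replicates overlapped by at least 1 bp.

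AHL26 was the only one of the 10 genes with a shared SOB3-GFP region. AHL23 had peaks in replicate 1 and none in replicate 2. The other 8 (80.0%) had no summit in their window in either list, and 69.3% of all protein-coding genes had none. In the replicate 1 list 2 of the 10 genes had a peak, with 28.7% of all genes, and in the replicate 2 list 1 of the 10, with 13.7% of all genes. A shared region was found at 1 of 10 genes (10.0%, exact 95% binomial interval 0.253% to 44.5%), with 11.3% of all protein-coding genes. With peaks that need not overlap it was again 1 of 10 (11.7% of all genes), and with peaks of −log10 q of at least 10 it was 0 of 10 (1.82%). The share of AHL19 to AHL28 with a SOB3-GFP region was thus near that of genes in general, which lies inside the wide interval that 10 genes give.

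**Figure D1:**
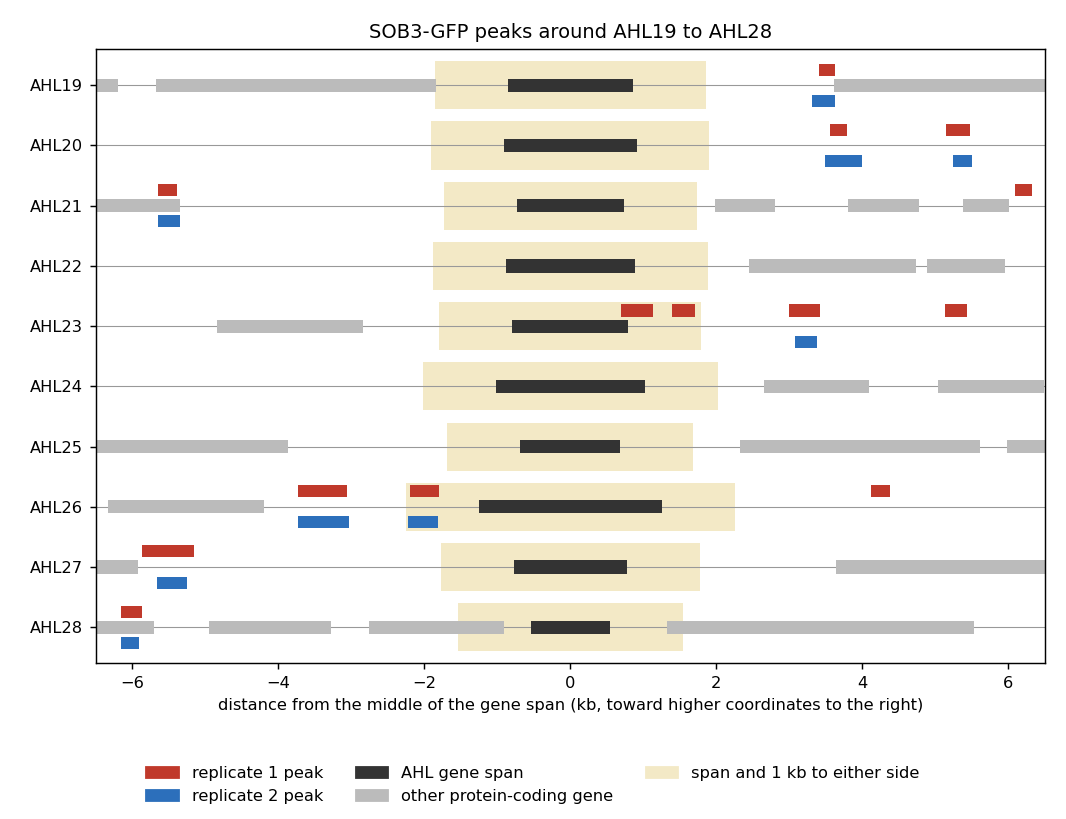
SOB3-GFP peaks around each of the 10 genes, drawn to scale in kb from the middle of the gene span, with replicate 1 peaks above the line, replicate 2 peaks below it and the counted window shaded. Peaks of both replicates fall into the shaded window at AHL26, replicate 1 peaks alone at AHL23, and no summit at the other 8 genes.

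AHL26 (AT4G12050) carried its shared region on the side of lower coordinates, outside the gene span, on chromosome 4 at 7218684 to 7219116 (TAIR10). The peak had 3.27-fold enrichment in replicate 1 and 2.76-fold in replicate 2, with a −log10 q of 15.9 and 9.08. Its summits lay 742 bp from the gene in replicate 1 and 726 bp in replicate 2, thus 16 bp apart, where the median over all 3823 shared regions was 39 bp. Both replicates gave the peak about the same width, 411 bp in replicate 1 and 413 bp in replicate 2.

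The reads behind the AHL26 region were moderate in number. Recovered summit coverage was 108 reads in replicate 1 (exact Poisson 95% interval 88.6 to 130) and 76 reads in replicate 2 (59.9 to 95.1). On the scale of the control this was 77.8 (63.8 to 93.9) in replicate 1 and 62.4 (49.1 to 78.1) in replicate 2, with control values of 23.1 and 22.0. The intervals of the replicates overlapped, and they cover counting error only. Setting the scaled values side by side assumes that both lists were scaled to the same control, which was not tested.

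Within its list the AHL26 peak ranked 1485 of 9980 by −log10 q in replicate 1 (the top 14.9%) and 1025 of 4788 in replicate 2 (the top 21.4%). By the lower of both folds the region ranked 986 of 3823 shared regions, the top 25.8%, so it was above the middle and far from the strongest. Its fold was 1.19 times higher in replicate 1, where the median ratio over shared regions was 1.12. Of the replicate 1 peaks in the same decile by −log10 q, 59.1% (Wilson 95% interval 56.0% to 62.1%) overlapped a replicate 2 peak.

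**Figure D2:**
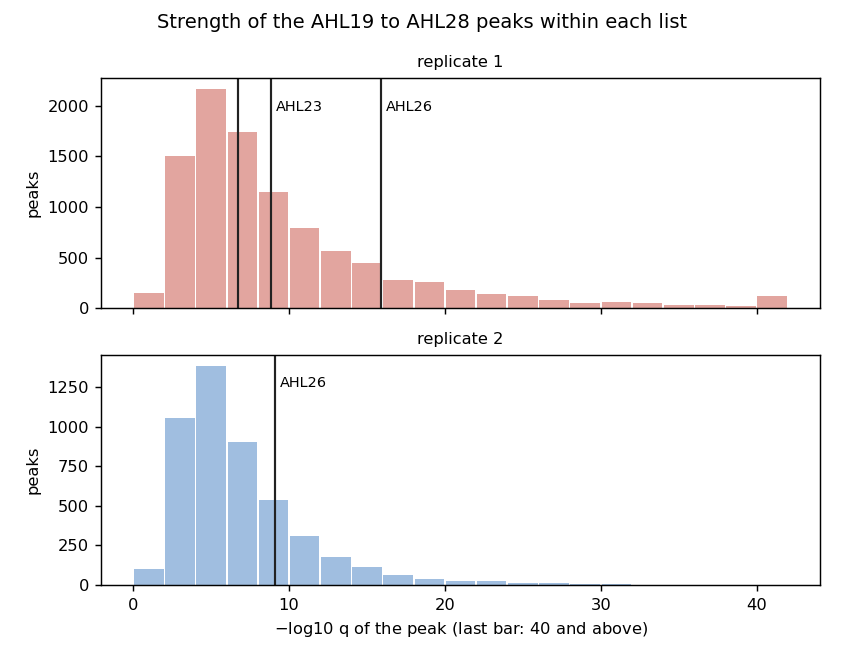
Number of peaks in each list by −log10 q in bins of 2, with lines at the peaks counted for AHL26 and AHL23. The AHL26 peak stands in the upper part of both distributions (15.9 in replicate 1 and 9.08 in replicate 2), and both AHL23 peaks (6.72 and 8.84) stand near the middle of replicate 1.

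The AHL26 region had no other protein-coding gene within 1000 bp of its summit. A second shared region lay farther out on the same side, on chromosome 4 at 7217177 to 7217873, with 3.60-fold enrichment in replicate 1 and 3.08-fold in replicate 2. Its replicate 1 summit was 1962 bp from AHL26 and fell into the window of the next gene, SAP7 (AT4G12040). By the lower fold this outer region ranked 476 of 3823, ahead of the one counted for AHL26. The AHL26 summit lay more than 500 bp outside the gene, as it did at 29.8% of all genes with a shared region, where it lay within 500 bp outside at 51.5% and in the span at 18.7%. The genes with the most similar pair of folds were GSTF14 (AT1G49860, 3.25 in replicate 1 and 2.76 in replicate 2) and the neighbours AT1G09645 and AT1G09650 (3.29 and 2.77 for each), with distances of 0.00673 and 0.0121 on the log2 fold scale over 2 lists.

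AHL23 (AT4G17800) had 2 peaks in its window in replicate 1 only, both on the side of higher coordinates. The nearer one, on chromosome 4 at 9896580 to 9897030, reached over the gene's edge and had its summit 103 bp outside, with a fold of 2.38 and 78 summit reads (exact Poisson 95% interval 61.7 to 97.3). The farther one, at 9897278 to 9897596, had its summit 753 bp outside, with a fold of 2.66 and 82 summit reads (65.2 to 102). Neither overlapped a replicate 2 peak.

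Replicate 1 peaks as strong as those of AHL23 lacked a partner more often than not. In the decile of the list by −log10 q that held the nearer peak (6.72), 32.2% overlapped a replicate 2 peak (Wilson 95% interval 29.3% to 35.1%), and in that of the farther peak (8.84) 42.2% did (39.2% to 45.3%). At control values within 1 of those at the AHL23 peaks, the weakest peaks called in replicate 2 had a fold of 1.68 and 1.72. A replicate 2 signal below that size at AHL23 may not have been listed. The calling threshold and the replicate 2 control value at that site are not known. A gene with replicate 1 peaks and no replicate 2 peak was frequent in general, at 17.0% of protein-coding genes.

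Beyond the window AHL23 had a shared region on chromosome 4 at 9898892 to 9899311, with its replicate 1 summit 2419 bp from the gene. It had a fold of 3.65 and 99 summit reads in replicate 1 (exact Poisson 95% interval 80.5 to 121) and a fold of 1.83 and 50 reads in replicate 2 (37.1 to 65.9). Scaled to the control, the coverage was 71.3 (57.9 to 86.8) in replicate 1 and 41.0 (30.5 to 54.1) in replicate 2, and these intervals did not overlap. They cover counting error only, and setting them side by side assumes that both lists were scaled to the same control, which was not tested. The replicate 2 peak ranked 4650 of 4788 by −log10 q, among its weakest.

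The relatives best known for growth had no summit in their windows. ESC (AHL27, AT1G20900), the partner of SOB3 in hypocotyl growth that is also known for delaying leaf senescence, had its nearest summits 4603 bp away in replicate 1 and 4656 bp in replicate 2. AHL22 (AT2G45430), which delays flowering when overexpressed, had them 12785 bp away in replicate 1 and 12856 bp in replicate 2. AGF1 (AHL25, AT4G35390), a regulator of the gibberellin synthesis gene GA3OX1 in feedback control, had them 8882 bp away in replicate 1 and 20681 bp in replicate 2.

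Members with other known roles lacked a peak as well. GIANT KILLER (GIK, AHL21, AT2G35270), which acts downstream of AGAMOUS in flower organs, had its nearest summits 4787 bp away in replicate 1 and 4817 bp in replicate 2. AHL20 (AT4G14465), a repressor of immune responses, had them 2734 bp and 2749 bp away, within a shared region with 2.29-fold enrichment in replicate 1 and 2.51-fold in replicate 2. AHL19 (AT3G04570), linked to defence against a vascular fungus, had them 2697 bp and 2578 bp away, in a shared region with 2.14-fold enrichment in replicate 1 and 2.86-fold in replicate 2 whose summit lay in the window of the ethylene receptor gene EIN4 (AT3G04580). For AHL24 (AT4G22810) the nearest summits were 7877 bp away in replicate 1 and 15797 bp in replicate 2, and for AHL28 (AT1G14490) 5435 bp and 5496 bp. A signal at these 8 genes too weak to be listed was not detectable. The weakest fold listed anywhere was 1.51 in replicate 1 and 1.60 in replicate 2, and the lowest listed fold differed with the control value at the site, which is not known for these genes.

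Shared regions became more frequent around AHL19 to AHL28 a few kb away from the genes. None had a shared region within the span (2.03% of all genes) or within 500 bp (7.82%). Within 2000 bp it was still 1 of 10 (16.0% of all genes), within 3000 bp 4 of 10 (20.5%) and within 5000 bp 6 of 10 (29.2%). The 6 were AHL19, AHL20, AHL21, AHL23, AHL26 and AHL27. Counted in the replicate 1 list alone, it was also 4 of 10 within 3000 bp (45.3% of all genes) and 6 of 10 within 5000 bp (58.6%). In the replicate 2 list it was 4 of 10 (24.6%) and 6 of 10 (34.4%). The contrast with all genes was thus not seen in the replicate 1 list. At AHL19, AHL21 and AHL27 the shared region's summits lay in the 1000 bp window of a neighbour, EIN4, AT2G35260 and AT1G20890 in turn. Those regions are thus closer to another gene. The nearest shared region lay a median of 4695 bp from the 10 genes (range 742 to 20616 bp), where the median over all genes was 11313 bp. For the other AHL genes this median was 6685.5 bp in Clade B and 12392 bp over AHL15 to AHL18. The nearest replicate 1 summit lay a median of 4695 bp from the 10 genes and 3647 bp from all genes, so it was not closer to the 10. For replicate 2 the medians were 4736.5 bp and 9109 bp. The windows of 3000 bp and 5000 bp were chosen after the values were seen.

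**Figure D3:**
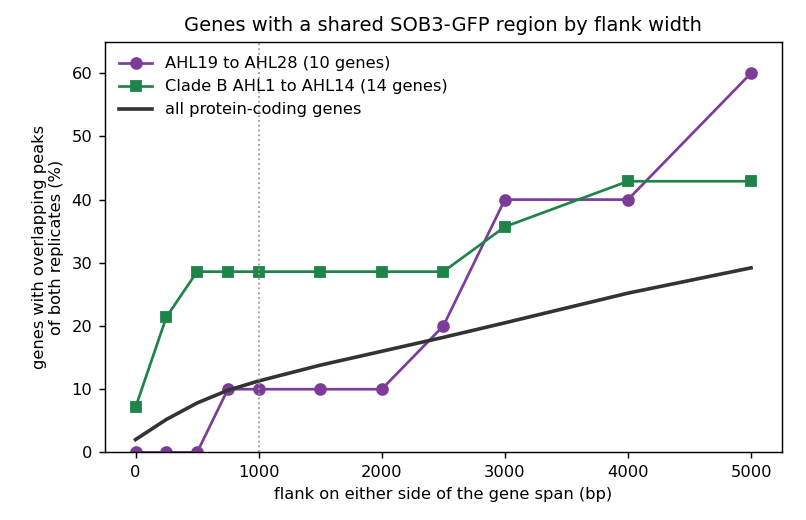
Share of genes with overlapping peaks of both replicates by the flank added to either side of the gene span, for AHL19 to AHL28, Clade B AHL genes and all protein-coding genes. AHL19 to AHL28 stand at 10.0% from a flank of 750 bp to one of 2000 bp and at 60.0% with a flank of 5000 bp, where all genes stand at 29.2%, and the dotted line marks the 1000 bp used for counting. Replicate 1 alone, not drawn, had a peak at 6 of the 10 genes and 58.6% of all genes with a flank of 5000 bp.

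These genes also sit in wide spaces between genes. The gaps to the protein-coding neighbours on both sides summed to a median of 8180 bp for the 10 genes and 1857 bp for all genes, with AHL20 at 15706 bp and AHL28, the exception, at 1146 bp. Of the 10 genes, 7 were in the quintile of genes with the widest gaps. Among these 7, 1 had a shared region within 1000 bp, and 16.8% of all genes in that quintile had one. Within 5000 bp 5 of the 7 had one, and 41.1% of all genes in that quintile. The part of gene spacing in the distances above was not tested.

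The other AHL genes were counted in the same way. Among the remaining Clade A genes, AHL17 (AT5G49700) had a shared region inside its span, with 3.89-fold enrichment in replicate 1 and 2.31-fold in replicate 2, although its neighbour AT5G49690 had the same summits in its window. AGF2 (AHL15, AT3G55560), which is known for prolonging the activity of meristems, had 2 peaks, both in the replicate 1 list alone, at folds of 2.17 and 2.11. AHL16 (AT2G42940), known for silencing transposable elements, and AHL18 (AT3G60870) had none. Over all of AHL15 to AHL28, 2 of 14 genes had a shared region (14.3%, exact 95% binomial interval 1.78% to 42.8%), near the 11.3% of all protein-coding genes.

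In Clade B, 4 of 14 genes had a shared region (28.6%, exact 95% binomial interval 8.39% to 58.1%), with 11.3% of all protein-coding genes, and this interval overlaps that of AHL19 to AHL28. AHL2 (AT4G22770) had the strongest of the family, on chromosome 4 at 11965565 to 11966189, with a fold of 5.22 and 158 summit reads in replicate 1 and a fold of 4.34 and 115 reads in replicate 2. It ranked 34 of 3823 by the lower fold. The others were AHL1 (AT4G12080, 2.60-fold enrichment in replicate 1 and 2.50-fold in replicate 2), AHL12 (AT1G63480, 2.36 in each) and AHL14 (AT3G04590, 3.62 and 2.64). Clade B had 2 genes with replicate 1 peaks only, AHL7 and AHL13 (17.0% of all genes), and 1 with a replicate 2 peak only, AHL3 at a fold of 1.84 (2.0% of all genes). The other 7 of the 14 had none (69.3% of all genes). The summits counted for AHL3, AHL7 and AHL13 also lay in the windows of their neighbours AT4G25330, LBD31 and AT4G17960. Clade B spans had a median of 2616.5 bp, with 1650.5 bp for AHL19 to AHL28 and 2078 bp for all genes. The counted windows of Clade B were thus wider. Whether the clades differ was not tested.

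**Figure D4:**
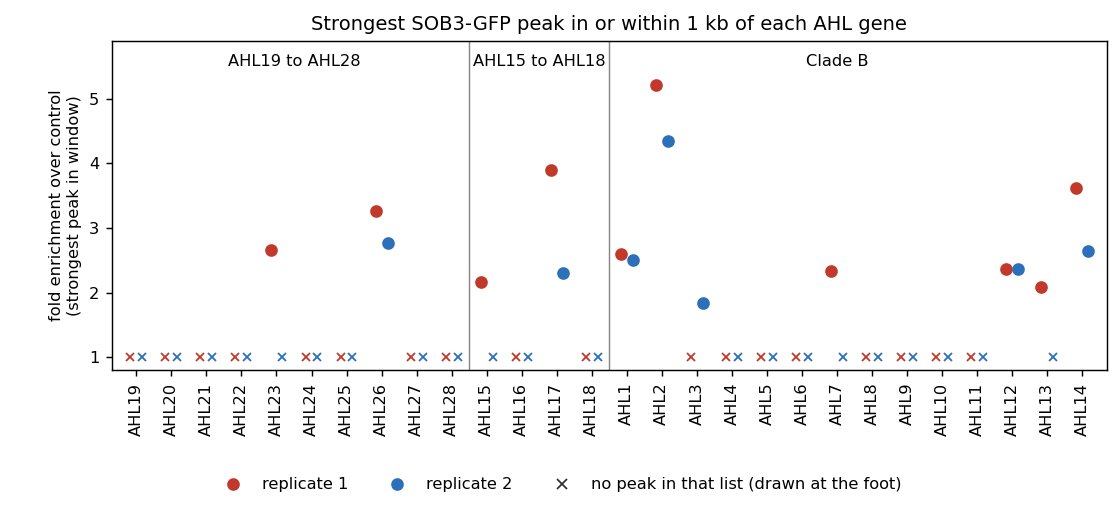
Authors' fold enrichment of the strongest peak in or within 1000 bp of each AHL gene in replicate 1 and replicate 2, with crosses for lists that held no peak there. Of AHL19 to AHL28, AHL26 has points in both replicates (3.27 and 2.76) and AHL23 in replicate 1 only (2.66), and the highest pair in the family belongs to AHL2 (5.22 and 4.34).

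Some of the 10 genes lie on the same stretch of chromosome as a Clade B gene, which allowed a view of relatives side by side. AHL24 is 18.2 kb from AHL2, and AHL24 had no peak in its window in either list beside the strongest AHL region at AHL2. AHL19 is 6.40 kb from AHL14, with EIN4 between them, and only AHL14 of that pair had a shared region in its window. AHL26 and AHL1, 17.0 kb apart, both had one, as separate regions. AHL23 and AHL13, 70.0 kb apart, both had peaks in the replicate 1 list alone, at folds of up to 2.66 for AHL23 and 2.09 for AHL13.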

How the data were processed

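The submitters' processing notes name bcl2fastq, Bowtie 0.12.9, MACS2 and the build TAIR10. No source used here gives the version, control or threshold of MACS2. Peak names number each list separately, so peaks were called per replicate. The deposited fold is a linear ratio of summit signal to control, with the deposited −log10 p and −log10 q of the summit. The deposited score repeated −log10 q times 10 without decimals (100% of peaks).

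Gene spans and names were read from RefSeq's gene table for TAIR10.1, which has no strand or sequence; its nuclear coordinates are taken to equal TAIR10 and none are printed. All 28 AHL loci matched by name. The planned sequence descriptions were not made.

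Summit reads were recovered by solving the MACS2 formulas (pseudocount 1) for pileup and control. For 100% of peaks a solution stood within 0.02 of a whole multiple of 0.720 (replicate 1) or 0.8207 (replicate 2), against a median of 8.05% and 8.35% at other steps. Values are given where 1 solution was whole. If both lists were scaled to the same control, which was not tested, replicate 1 was 1.14 times as deep as replicate 2. Python 3.11.15 and scipy 1.17.1 were used, and the steps were tested on simulated data.

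The members and lists were chosen with earlier results of these data known. With 1 group, no test was made. Named are the 10 genes, AHL15 to AHL18, Clade B genes with a shared region, coding neighbours and the 3 genes nearest to the strongest member in log2 fold; others were named after their values were seen. Alternatives covered the flank, the −log10 q threshold, the overlap rule, list length and each replicate alone.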

Additional observations from a re-analysis of the deposited data

How the results depend on the processing

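The count of 1 gene with a shared region, AHL26, was the same under several settings. The share of all protein-coding genes, given in brackets throughout, moved with the setting. These settings were a flank of 2000 bp (16.0%), any overlap of peak and window (12.3%) and −log10 q of at least 5 (6.85%). The others were the replicate 1 list shortened to the length of the other (8.01%), a reciprocal overlap of 50% (9.53%), summits within 100 bp (9.55%) and peaks that need not overlap (11.7%). The count was 0 with flanks of 0 bp (2.03%) and 500 bp (7.82%), and 0 where −log10 q had to reach 10 (1.82%). With a single replicate it was 1 without replicate 1 (13.7%) and 2 without replicate 2 (28.7%), where AHL23 was added. With flanks added after the values were seen it was 4 at 3000 bp (20.5%) and 6 at 5000 bp (29.2%). The replicate 1 count of 2 was 0 with a flank of 0 bp (7.5%), 1 with 500 bp (AHL23, 22.2%) and 1 at −log10 q of at least 10 (AHL26, 10.4%). The replicate 2 count of 1 was 0 under each of these (2.8%, 9.74% and 2.39%). The narrower flanks end the AHL26 call because its summits lie 742 bp and 726 bp out, and the stricter threshold because its replicate 2 −log10 q was 9.08. No paired analysis was possible because both peak lists belong to 1 group. The fold of AHL23 was 2.38 with the peak nearest to the gene in place of 2.66. With a flank of 2000 bp that of AHL26 was 3.60 in replicate 1 and 3.08 in replicate 2, the values of the outer region. Depth limits these counts to listed peaks.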

Other observations

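The 20 protein-coding genes that border AHL19 to AHL28 were looked up as well, and 5 of them had a shared region within 1000 bp, with 11.3% of all protein-coding genes. In each list alone it was also 5 of the 20, with 28.7% of all genes in replicate 1 and 13.7% in replicate 2. The 20 genes border the gaps around AHL19 to AHL28, which are mostly wide. The share with a shared region was 16.8% among all genes in the quintile with the widest gaps. The part of gene spacing in this count was not tested. The 5 follow with the fold of the strongest peak in the window in replicate 1 and in replicate 2. They were EIN4 beside AHL19 (2.14 and 2.86), AT2G35260 beside AHL21 (2.78 and 2.38) and AT4G17810 beside AHL23 (3.92 and 2.76). The others were SAP7 beside AHL26 (3.60 and 3.08) and AT1G20890 beside AHL27 (2.89 and 2.43). AT2G35260 and AT4G17810 had 2 peaks in each list, so their folds need not come from 1 region. The AT2G35260 region with 2.38 in replicate 2 had 2.56 in replicate 1. For 4 of the 5 the AHL gene beside it had no shared region within 1000 bp of its own span. The regions counted within 5000 bp of AHL19, AHL21 and AHL27 lie in the windows of EIN4, AT2G35260 and AT1G20890. That of SAP7 is the outer region given for AHL26. The neighbour count thus rests largely on regions already described and is not separate from the counts above.

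AHL20 had no protein-coding gene within 7553 bp on the side of higher coordinates and held 2 shared regions there. The nearer one is given above. The farther one, on chromosome 4 at 8326594 to 8326947, had its replicate 1 summit 4392 bp from the gene, 2.55-fold enrichment in replicate 1 and 2.47-fold in replicate 2 and summits 4 bp apart. Neither had a protein-coding gene within 1000 bp of its summit. The farther one lay closer to the next protein-coding gene, AT4G14480, than to AHL20.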
